A study of Mus musculus with 12 samples.

Results

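The change in gene expression between 8 h and 12 h of lipopolysaccharide (LPS) was measured in bone marrow-derived macrophages (BMDM), macrophages grown in culture from mouse bone marrow with M-CSF. The comparison used 4 libraries at 12 h (M1-12 h) and 4 at 8 h (M1-8 h), which are 8 of the 12 RNA-seq libraries of the study, and the other 4 are unstimulated cells (M0) that received vehicle (PBS). At each time there were 2 biological replicates of wild type (wt) and 2 of Treml4-/- BMDM, all on a C57BL6 background, and LPS was given at 100 ng/ml. The Treml4-/- cells lack Treml4, a receptor of the TREM-like family, in every library of that genotype, so the same number of libraries at each time carries the deletion, and genotype entered the fit as a covariate. RNA of whole cultures was sequenced, so fewer cells of a type and less RNA per cell cannot be told apart.

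LPS is a component of the outer membrane of Gram-negative bacteria that is sensed by Toll-like receptor 4. The receptor signals to NF-kB, MAP kinases and interferon regulatory factors, which switch on cytokine genes within the first hours, and interferon made by the cells then switches on antiviral genes. Feedback inhibitors such as A20 and dual-specificity phosphatases limit the response afterwards, while activated macrophages turn to glycolysis and slow their growth and division.

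Levels are given as CPM, the reads of a gene scaled to a common total of reads on genes in each library, and the 4 values at a time are always listed as wt replicates 1 and 2 followed by Treml4-/- replicates 1 and 2. Log2 fold changes are M1-12 h minus M1-8 h on the log2(CPM + 1) scale, which understates the change of weakly expressed genes. Among 43280 genes in the table, the 12086 with at least 1 CPM in at least 2 of the 12 libraries were tested with limma, and a gene was called at a Benjamini-Hochberg adjusted p under 0.05 with a fold change of at least 1.4. The 8 libraries held 48008751 to 58500792 reads on genes, so that 1 read was worth 0.0171 to 0.0208 CPM and 3 reads up to 0.0625 CPM, a limit that covers counting error only. Defining macrophage markers (8 of 8 in the table, among them Csf1r, Itgam and Cd68) summed to 10295 to 13416 CPM at M1-8 h and 9996 to 11185 CPM at M1-12 h. Of these 8 markers, 0 were called higher and 2 lower at M1-12 h, namely Lyz2 (-0.51) and Mertk (-0.51). Both lay just past the log2 limit of 0.485 for a call and were not checked under other scalings. With TMM scaling (trimmed mean of M values) the median of all genes shifted upward by 0.09, more than either marker lay beyond that limit. Of 8 neutrophil markers, which include granule genes of their precursors, 7 were tested and 6 were called lower at M1-12 h, with a sum of 72.2 to 108 CPM at M1-8 h and 48.9 to 66.8 CPM at M1-12 h, while Ly6g stayed at 3 reads or fewer, and their part in the results was not tested. Markers of T or NK, mast and erythroid cells summed to at most 0.202 CPM and those of B cells to at most 0.727 CPM at M1-8 h. Dendritic cell markers summed to 6.14 to 9.25 CPM at M1-8 h and 4.37 to 8.08 CPM at M1-12 h (1 of 2 tested called lower), and fibroblast markers to 2.78 to 5.25 CPM and 0.989 to 2.14 CPM without overlap (the 1 tested, Pdgfrb, called lower with -0.99), and their part in the results was not tested. The dendritic cell marker called lower was Xcr1 (-0.56), which was not called with TMM scaling (-0.49) nor without wt replicate 1 or Treml4-/- replicate 2 at M1-12 h or replicate 2 of either genotype at M1-8 h (-0.43 to -0.50). Of the 4 libraries at M1-12 h, wt replicate 2 lay nearest to the M1-8 h mean for 788 of the 1627 genes called higher and for 899 of the 2257 called lower, and without it 1616 genes were called higher and 2352 lower.

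Between M1-8 h and M1-12 h, 3884 of the 12086 genes were called (32.1%), with 1627 higher (13.5%) and 2257 lower (18.7%) at M1-12 h. The counts of every list below stand against these shares called higher and lower. At least 2-fold changes were found for 430 of the genes called higher and 638 of those called lower, and at least 4-fold changes for 41 and 54. The 4 and 4 libraries did not overlap for 3637 of the 3884 called genes, against 6202 (51.3%) of all genes tested. The largest increases were those of Cd300lf, Mtss1, Arg1, Wnk2, Hyal1, Rassf8 and Egln3, with log2 fold changes of 3.34 to 3.73, and the largest decreases those of Dusp2, Vdr, Gfi1, Taf4b and Il18rap, with -2.89 to -3.18. The split between higher and lower depended on how the libraries were scaled to each other: 41.9% of the called genes were higher with CPM, 47.7% with median of ratios scaling, 50.4% with quantile normalization and 54.8% (2168 higher and 1787 lower) with trimmed mean of M values (TMM) scaling, where the median log2 fold change of all genes was 0.03 instead of -0.06. Exonic GC content also moved with the change: from the lowest to the highest of 5 equal bins of genes by GC content, the median log2 fold change ran from -0.23 to 0.07 in Treml4-/- cells, while in wt cells it was lower in the 3 middle bins (-0.06 to -0.08) than in the outer bins (-0.01 and -0.00041), and its part in single genes was not tested.

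**Figure D1:**
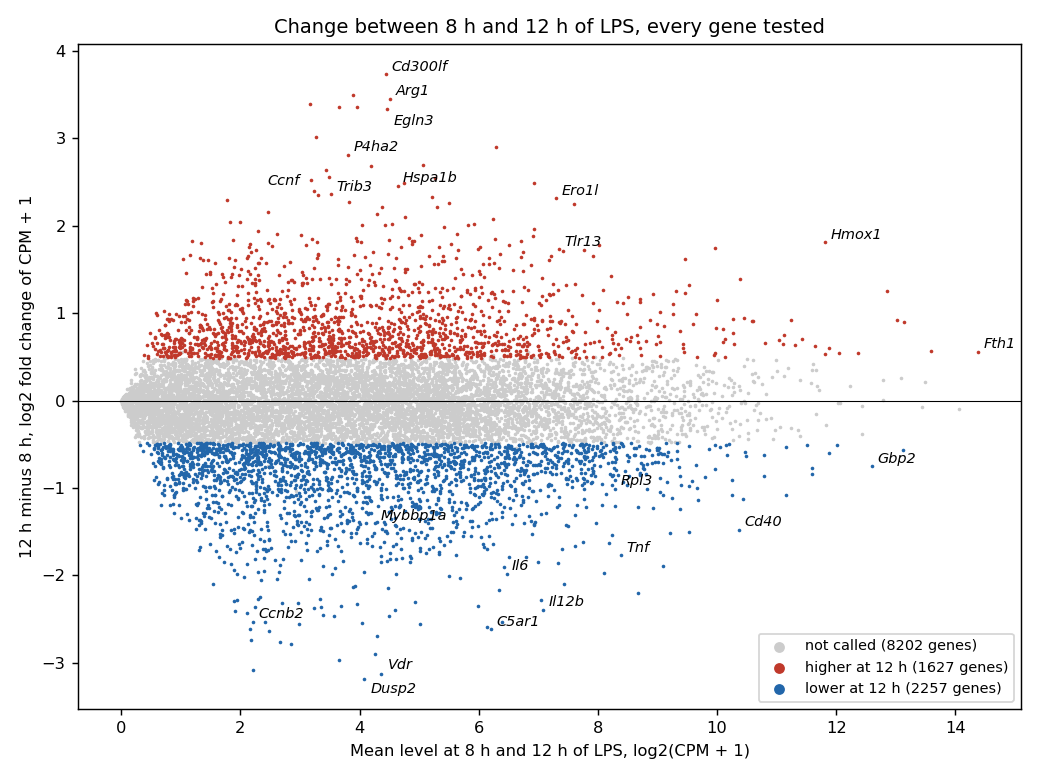
Log2 fold change between 8 h and 12 h of LPS (vertical axis) against the mean level of the 8 LPS libraries, log2(CPM + 1) (horizontal axis), for the 12086 genes tested. Red points are the 1627 genes called higher at 12 h, blue points the 2257 called lower and grey points the rest; Cd300lf lies at the top with 3.73 and Dusp2 at the bottom with -3.18.

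Genes of glycolysis and the hypoxia response rose together. Of 37 tested members, 28 were called higher and 3 lower at M1-12 h, and the median log2 fold change was 0.78, against 13.5% called higher and a median of -0.06 over all genes. Glycolysis breaks glucose down to pyruvate in the cytosol, and many of its enzymes are switched on by hypoxia-inducible factor, which is kept low by prolyl hydroxylases when oxygen is present. The sum of the list was 14658 to 16764 CPM at M0, 19585 to 22736 CPM at M1-8 h and 31820.0 to 36375 CPM at M1-12 h. Every library at M1-12 h exceeded every library at M1-8 h, and the list had the highest median of the 32 lists.

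Egln3 (chr12:54178981-54203860, GRCm38), a prolyl hydroxylase that marks hypoxia-inducible factor for destruction, had 4.76, 7.69, 6.05 and 5.29 CPM at M1-8 h and 71.8, 73.5, 67.3 and 61.3 CPM at M1-12 h. The groups did not overlap, and the log2 fold change was 3.34 ± 0.12 (SE, limma, Benjamini-Hochberg adjusted p = 2.3e-07). Unstimulated cells had a mean of 8.27 CPM, so that the level at M1-8 h was still near that of M0. P4ha2, a subunit of the enzyme that hydroxylates collagen prolines, followed the same course with 4.64, 4.33, 4.32 and 3.73 CPM at M1-8 h and 39.5, 39.97, 33.7 and 30.9 CPM at M1-12 h. Its libraries did not overlap either, with a log2 fold change of 2.81 ± 0.08 (SE, limma, Benjamini-Hochberg adjusted p = 1.6e-07). Vegfa, which encodes the angiogenic growth factor, had 19.5, 24.3, 15.7 and 16.4 CPM at M1-8 h and 60.5, 90.1, 51.8 and 49.3 CPM at M1-12 h, with no overlap and a log2 fold change of 1.66 ± 0.12 (SE, limma, Benjamini-Hochberg adjusted p = 3.9e-06). Ero1l, an oxidase that makes disulfide bonds in the endoplasmic reticulum, rose by 2.31, and had a mean of 69.2 ± 7.13 CPM at M1-8 h and 349 ± 37.8 CPM at M1-12 h (SD, n = 4 each).

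Along the pathway, the glucose transporter Slc2a1 and the lactate exporter Slc16a3 were called higher, with log2 fold changes of 0.88 and 0.99. Enzymes called higher ran from the start of the pathway to its end, among them Hk1 (1.21), Hk2 (0.68), Gpi1 (0.99), Pfkl (0.83), Aldoa (0.64), Tpi1 (0.93), Gapdh (0.71), Pgk1 (0.78), Eno1 (0.92), Pkm (0.54) and Ldha (0.70). The mitophagy receptors Bnip3 and Bnip3l rose by 1.42 and 1.58, and Pfkfb3, whose product makes an activator of phosphofructokinase, by 1.39. The 3 members called lower were Pfkp (-0.74), Aldoc (-0.52) and Hif1a (-0.57), the last of which encodes the oxygen-regulated subunit of hypoxia-inducible factor. The calls of Aldoc and Hif1a were lost with TMM scaling (-0.41 and -0.45) and with quantile normalization (-0.47 and -0.48). That of Aldoc was also lost with median of ratios scaling (-0.475), and without wt replicate 1 at M1-12 h (-0.46) or wt replicate 2 at M1-8 h (-0.41). That of Hif1a was also lost without Treml4-/- replicate 2 at M1-8 h (-0.42) or M1-12 h (-0.49). Hif1a was not called in the wt libraries alone (-0.29), nor Aldoc in the Treml4-/- libraries alone (-0.38). Pkm was not called with quantile normalization (0.44).

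The promoter of Egln3 is shown because the gene had the largest rise of the list, with the core of the hypoxia response element, ACGTG on either strand, in capitals. It covers 250 bases before to 20 bases after the RefSeq start site (chr12:54203855-54204124, GRCm38.p6, minus strand) and holds 1 match, whose first base lies at position -229 from the start site.
Egln3 promoter: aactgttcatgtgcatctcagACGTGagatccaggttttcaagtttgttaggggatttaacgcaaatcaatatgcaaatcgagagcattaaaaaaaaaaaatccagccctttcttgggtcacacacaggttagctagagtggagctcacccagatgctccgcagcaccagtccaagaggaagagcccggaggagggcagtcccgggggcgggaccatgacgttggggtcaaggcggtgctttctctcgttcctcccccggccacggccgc

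Over windows from 250 bases before to 50 bases after the start, ACGTG was present in 20 of 35 members of the list with a window (57.1%), 28.3% of the genes called higher and 26.5% of the 9150 tested genes with one.

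Several chaperone genes of the heat shock response were higher at M1-12 h. Of 13 tested members, 6 were called higher (46.2%, against 13.5% over all genes) and 1 lower at M1-12 h, and the median log2 fold change was 0.34. The called ones were Hspa1b, Hspa1a, Hsph1, Hsp90aa1, Hsp90ab1 and Hspa8 upward and Hspa4 downward. Hspa4 was not called with TMM scaling (-0.42) or without wt replicate 2 at M1-8 h (-0.48). Hspa1b, which encodes inducible HSP70, had 9.81, 12.8, 7.40 and 8.56 CPM at M1-8 h and 55.6, 69.2, 43.5 and 60.9 CPM at M1-12 h. No library of M1-12 h was as low as any of M1-8 h, and the log2 fold change was 2.46 ± 0.13 (SE, limma, Benjamini-Hochberg adjusted p = 7.6e-07). Its near-identical copy Hspa1a rose by 2.26, and how the reads were shared between these copies is uncertain. Hsph1, a nucleotide exchange factor of HSP70, rose by 1.52, and the constitutive Hspa8 by 0.64. The summed level of the list was 3162 to 3996 CPM at M1-8 h and 5197 to 5444 CPM at M1-12 h.

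In the unfolded protein and integrated stress response, 8 of 36 tested members were called higher and 7 lower, with a median log2 fold change of 0.03, a sign that turned without M1-8 h wt replicate 2 or M1-12 h wt replicate 1. The shares were 22.2% and 19.4%, against 13.5% and 18.7% over all genes. Trib3, a pseudokinase that restrains ATF4 signalling, had 4.42, 4.27, 3.62 and 3.97 CPM at M1-8 h and 29.1, 21.6, 23.2 and 26.6 CPM at M1-12 h. The groups did not overlap, and its log2 fold change was 2.36 ± 0.10 (SE, limma, Benjamini-Hochberg adjusted p = 3.5e-07). Ddit3, which encodes the transcription factor CHOP, rose by 2.02 and had a mean of 10.7 ± 2.36 CPM at M1-8 h and 45.8 ± 5.71 CPM at M1-12 h (SD, n = 4 each). Sesn2, a stress-induced inhibitor of mTORC1 signalling, rose by 2.01, Atf4 by 1.33 and Chac1, a glutathione-degrading enzyme, by 1.33. Enzymes and transporters of amino acid supply were among the members called lower, with log2 fold changes of -1.48 for Phgdh and -0.71 for Psat1 of serine synthesis, -1.41 for mitochondrial Shmt2, -1.24 for asparagine synthetase Asns and -1.04 for the leucine transporter Slc7a5. Hspa5, the chief chaperone of the endoplasmic reticulum and the most abundant member, had a log2 fold change of -0.19 ± 0.08 (SE, limma, Benjamini-Hochberg adjusted p = 0.063) and was not called.

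NRF2 targets and antioxidant genes were called higher in 8 of 28 cases (28.6%, against 13.5% over all genes) and lower in 4, with a median of 0.34. With TMM scaling 14 were called higher. Hmox1, the haem-degrading enzyme, had 1993, 1753, 1894 and 2036 CPM at M1-8 h and 7097, 5788, 6890.5 and 7182 CPM at M1-12 h. Each library at M1-12 h was above each at M1-8 h, and the log2 fold change was 1.81 ± 0.09 (SE, limma, Benjamini-Hochberg adjusted p = 4.3e-07). Peroxiredoxin Prdx6 rose by 1.21, Gclc, the catalytic subunit of the first enzyme of glutathione synthesis, by 1.07, and the autophagy receptor Sqstm1 by 0.95. Nfe2l2, which encodes NRF2 itself, was called lower (-1.19), as were Sod1 (-0.71), Txnrd1 (-0.68) and Gpx1 (-0.67).

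Among 20 genes of iron handling, metallothioneins and acute-phase proteins, 7 were called higher (35.0%) and 6 lower (30.0%), against 13.5% and 18.7% over all genes. Fth1, the heavy chain of the iron store ferritin, had 18736, 17151, 17046 and 17735 CPM at M1-8 h and 25923, 26283, 25209 and 26507 CPM at M1-12 h, the largest gain in CPM of any called gene. Its log2 fold change was 0.56 ± 0.08 (SE, limma, Benjamini-Hochberg adjusted p = 3.4e-04), and it lost its call with quantile normalization (0.17). The iron exporter Slc40a1 (0.58), the phagosomal metal transporter Slc11a1 (0.92) and serum amyloid A genes Saa3 (0.90) and Saa1 (0.73) were also called higher. The transferrin receptor Tfrc (-1.12), the metalloreductase Steap4 (-2.31), the zinc and iron importer Slc39a14 (-0.94) and the metallothionein Mt2 (-0.92) were called lower.

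Several genes with the largest late increases encode receptors and enzymes of other kinds. Cd300lf (chr11:115116214-115133992), an inhibitory receptor of the CD300 family that binds lipids, had 4.28, 2.54, 6.41 and 7.06 CPM at M1-8 h and 77.8, 55.9, 84.8 and 89.9 CPM at M1-12 h. Its libraries did not overlap, the log2 fold change was 3.73 ± 0.15 (SE, limma, Benjamini-Hochberg adjusted p = 2.8e-07), and the M0 mean was 1.76 CPM. Arg1 (chr10:24915221-24927484), the cytosolic arginase that competes with nitric oxide synthase for arginine, had 7.47, 1.86, 7.30 and 6.17 CPM at M1-8 h and 123, 24.4, 96.7 and 65.6 CPM at M1-12 h. The groups did not overlap, although wt replicate 2 was the lowest library at both times, and the log2 fold change was 3.45 ± 0.47 (SE, limma, Benjamini-Hochberg adjusted p = 1.8e-04). Nos2, the inducible nitric oxide synthase, had 19425, 17094, 17083 and 16756 CPM at M1-8 h and 17297, 16246, 15560.0 and 16725 CPM at M1-12 h, and its log2 fold change of -0.09 ± 0.09 (SE, limma, Benjamini-Hochberg adjusted p = 0.363) was not called. Of the 15 tested enzymes of arginine, itaconate and tryptophan metabolism, 3 were called higher, namely Arg1, Ass1 (0.71) and Arg2 (0.62), and 3 lower, namely Kynu (-1.02), Ido2 (-0.75) and Spr, whose log2 fold change of -0.54 became -0.48 and was not called without wt replicate 1 at M1-8 h or Treml4-/- replicate 1 at M1-12 h. Each count was 20.0% of the list, against 13.5% called higher and 18.7% called lower over all genes. With TMM scaling 5 of these enzymes were called higher, and in the wt libraries alone 5 higher and 0 lower.

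Mtss1, a protein that bends membranes and binds actin, had 2.42, 2.40, 4.14 and 4.48 CPM at M1-8 h and 51.5, 27.3, 62.6 and 55.6 CPM at M1-12 h. All libraries at M1-12 h were above those at M1-8 h and below the M0 mean of 157 CPM, and the log2 fold change was 3.50 ± 0.16 (SE, limma, Benjamini-Hochberg adjusted p = 4.3e-07). Wnk2, a kinase, rose by 3.39 to 27.03, 31.8, 24.8 and 28.9 CPM from 1.92, 1.21, 1.74 and 2.31 CPM, and Hyal1, the lysosomal hyaluronidase, by 3.36 to 42.5, 23.8, 43.5 and 47.8 CPM from 2.40, 1.89, 3.20 and 4.15 CPM. Neither gene had overlapping groups. The remaining genes among the 15 largest increases were Rassf8 (3.35), Bhlhe41 (3.02), a transcriptional repressor, Lhfpl2 (2.91), the ceramide kinase Cerk (2.70), the DNA repair gene Fanca (2.68), Plcxd2 (2.64), Gm15056 (2.56), a gene model without a name, and the endosomal adaptor Appl2 (2.55), together with Egln3 and P4ha2. Adam8, a membrane protease, rose by 1.62 and thrombospondin Thbs1 by 1.74, while Vcan (-1.98), a matrix proteoglycan, Sdc4 (-1.51) and the collagenase Mmp13 (-1.07) were called lower. Of 28 matrix and coagulation genes, 4 were called higher (14.3%) and 6 lower (21.4%), both near the shares over all genes, and without wt replicate 1 at M1-8 h or wt replicate 2 at M1-12 h 2 were higher.

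Lysosomal genes were called higher in 10 of 38 cases (26.3%, against 13.5% over all genes) and lower in 0 (limma, with 1 lower in the wt libraries alone), with a median of 0.21. Without a minimum fold change 19 were called higher and 3 lower. The summed level of the list was 59422 to 67155 CPM at M0, 34494 to 39297 CPM at M1-8 h and 47256 to 51407 CPM at M1-12 h, so that it lay between the other times at M1-12 h without overlap. Psap, the precursor of the saposins that help break down sphingolipids, had 4852, 5469, 4558 and 4398 CPM at M1-8 h and 11756, 10470.0, 11205 and 12294 CPM at M1-12 h and a log2 fold change of 1.25 ± 0.09 (SE, limma, Benjamini-Hochberg adjusted p = 4.3e-06). The cholesterol exporter of the lysosome Npc1 (1.15), the master regulator of lysosomal genes Tfeb (1.10) and the protease cathepsin K, Ctsk (0.95), were called higher. Of 24 genes of the liver X receptor and fatty acid metabolism, 5 were called higher, among them the cholesterol efflux pump Abca1 (1.68), the desaturase Scd2 (1.71) and the receptor Nr1h3 (0.94), and 9 lower, among them Acaca (-1.22) and Fasn (-1.12) of fatty acid synthesis and lipoprotein lipase Lpl (-1.07). The shares were 20.8% higher and 37.5% lower, against 13.5% and 18.7% over all genes. Without Treml4-/- replicate 2 at M1-8 h or M1-12 h, 3 were called higher.

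Cholesterol synthesis was lower at M1-12 h: of 24 tested members, 1 was called higher and 11 lower at M1-12 h, and the median log2 fold change was -0.43. The summed level was 1393 to 1439.5 CPM at M0, 640.1 to 754 CPM at M1-8 h and 458 to 529 CPM at M1-12 h, and the libraries of the 3 times did not overlap. Fdps, which makes farnesyl pyrophosphate, fell by 1.56 on the log2 scale, the lanosterol demethylase Cyp51 by 1.42, Idi1 by 1.34 and Srebf2, the transcription factor of the pathway, by 1.11. The member called higher was Mvd (0.61).

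Cytokine genes fell back. Of 26 tested members, 4 were called higher and 15 lower at M1-12 h, and the median log2 fold change was -0.54, against 18.7% called lower among all genes. In the wt libraries alone 7 members were called lower and in the Treml4-/- libraries alone 15, and with TMM scaling 10 were. Il12b (chr11:44400063-44414033), the shared subunit of IL-12 and IL-23, had 337, 299.9, 261 and 332 CPM at M1-8 h and 62.2, 46.01, 68.8 and 55.2 CPM at M1-12 h. No library at M1-12 h reached the M1-8 h range, the log2 fold change was -2.39 ± 0.13 (SE, limma, Benjamini-Hochberg adjusted p = 7.6e-07), and the M0 mean was 0.0538 CPM. Il6 (chr5:30013114-30019981), which encodes interleukin 6, had 164, 230.0, 119 and 174 CPM at M1-8 h and 41.5, 72.8, 34.3 and 28.7 CPM at M1-12 h. The groups did not overlap and the log2 fold change was -1.98 ± 0.20 (SE, limma, Benjamini-Hochberg adjusted p = 2.5e-05), with wt replicate 2 highest at both times. Tnf, which encodes tumour necrosis factor and was named after its values were seen, had 606, 659, 625 and 569 CPM at M1-8 h and 146, 196, 192 and 188 CPM at M1-12 h, with no overlap and a log2 fold change of -1.77 ± 0.10 (SE, limma, Benjamini-Hochberg adjusted p = 8.7e-07).

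Ifnb1, the interferon beta gene, had 8.98, 14.9, 8.03 and 7.70 CPM at M1-8 h and 0.940, 1.79, 1.04 and 1.11 CPM at M1-12 h, and Il27, a subunit of interleukin 27, 1048, 670.2, 892 and 879.6 CPM at M1-8 h and 215, 218, 155 and 165 CPM at M1-12 h. Neither pair of groups overlapped, and the log2 fold changes were -2.27 and -2.21. Smaller decreases were called for Edn1 (-0.89), Hbegf (-0.79) and Tnfsf9 (-0.77). The 4 cytokines called higher were Vegfa, Pdgfb (1.09), Il1a (0.92) and Il15 (0.65). Il1rn, the interleukin 1 receptor antagonist and the most abundant member, had 12592, 10062, 11260.0 and 11497 CPM at M1-8 h and 11613, 9057, 11794 and 10971 CPM at M1-12 h, which overlapped, and was not called. Among 18 chemokines, 4 were called lower (22.2%, near the 18.7% over all genes), namely Cx3cl1 (-1.71), Ccl22 (-1.51), Ccl9 (-1.24) and Cxcl1 (-0.74), and 1 higher, Ccl5 (0.53; 0.44 and not called with quantile normalization).

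The promoter of Il6 is shown because the gene had the largest fall among cytokines whose window holds the NF-kB site, GGGA and TTTCC with 1 base of any kind between them, searched on either strand and set in capitals. It covers 250 bases before to 20 after the RefSeq start (chr5:30012864-30013133, GRCm38.p6, plus strand), and the match begins at position -44.
Il6 promoter: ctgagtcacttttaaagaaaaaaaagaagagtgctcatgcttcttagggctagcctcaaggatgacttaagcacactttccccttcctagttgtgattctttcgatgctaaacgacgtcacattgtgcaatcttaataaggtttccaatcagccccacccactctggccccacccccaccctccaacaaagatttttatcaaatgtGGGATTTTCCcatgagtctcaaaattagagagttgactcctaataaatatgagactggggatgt

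The motif was present in 2 of 17 cytokine windows (11.8%), 0.454% of those of the genes called lower and 0.415% of all.

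Of 30 NF-kB subunits and feedback inhibitors, 2 were called higher (6.67%, against 13.5% over all genes) and 10 lower (33.3%, against 18.7%) at M1-12 h, and the median log2 fold change was -0.30. Their summed level was 2655 to 2962 CPM at M0, 8951 to 10160.0 CPM at M1-8 h and 5758 to 6879 CPM at M1-12 h. The subunits Rel (-1.61) and Nfkb1 (-1.54) were called lower, and so were the inhibitors Tnip3 (-1.89), Tnfaip3 (-1.11), which encodes A20, Nfkbie (-0.96), Nfkbia (-0.61) and Socs3 (-0.63). Nfkb1 had 518, 633, 465 and 424 CPM at M1-8 h and 149, 245, 159.7 and 154 CPM at M1-12 h, so that wt replicate 2 was the highest library at M1-12 h and still below those at M1-8 h. The RNA-binding protein gene Zfp36l1 (0.78) and the RNase gene Zc3h12d (0.56) were called higher, the latter not without wt replicate 1 at M1-12 h (0.43).

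Immediate early and AP-1 genes moved in both directions, with 9 of 31 called higher (29.0%, against 13.5% over all genes) and 13 lower (41.9%, against 18.7%). Dusp2 (chr2:127336159-127338376), a nuclear phosphatase that switches off MAP kinases, had 55.3, 58.2, 43.3 and 37.1 CPM at M1-8 h and 3.97, 8.26, 2.96 and 3.59 CPM at M1-12 h, the largest decrease of all genes. The groups did not overlap, the log2 fold change was -3.18 ± 0.17 (SE, limma, Benjamini-Hochberg adjusted p = 7.6e-07), and the M0 mean was 1.92 CPM. Dusp5 (-1.65), Nr4a1 (-1.39) and Btg2 (-1.28) were also called lower. Jun (1.42), Fosl1 (1.06), Atf3 (0.83), Dusp6 (1.16), Klf4 (1.05) and Klf10 (1.36) were called higher, and Jun, Fosl1 and Atf3 encode subunits of AP-1.

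Receptors were among the largest decreases. C5ar1, the receptor of complement fragment C5a, had 206, 163, 193 and 157 CPM at M1-8 h and 28.6, 20.9, 35.2 and 30.5 CPM at M1-12 h. No library overlapped, and the log2 fold change was -2.61 ± 0.14 (SE, limma, Benjamini-Hochberg adjusted p = 8.0e-07). The receptor of C3a, C3ar1, was called higher at 1.11 with 406, 277, 498 and 488 CPM at M1-8 h and 926, 672, 985 and 973 CPM at M1-12 h. Of 17 chemokine and chemoattractant receptors, 4 were called higher (23.5%, against 13.5% over all genes) and 5 lower (29.4%, against 18.7%), the latter including Ccr2 (-1.35). Vdr, the vitamin D receptor, had 65.7, 63.3, 55.4 and 53.02 CPM at M1-8 h and 5.89, 7.66, 4.96 and 5.26 CPM at M1-12 h and a log2 fold change of -3.13 ± 0.08 (SE, limma, Benjamini-Hochberg adjusted p = 1.6e-07). Olr1, a receptor of oxidized lipoprotein, fell by 2.63 on the log2 scale, Il18rap, a subunit of the interleukin 18 receptor, by 2.89, and the mannose receptor Mrc1 by 1.48. Gfi1, a transcriptional repressor of granulocyte development, had 12.4, 16.7, 11.1 and 9.84 CPM at M1-8 h and 0.499, 0.973, 0.437 and 0.434 CPM at M1-12 h, and the TFIID subunit Taf4b fell by 2.97. The other decreases among the 15 largest were Fst (-2.78), an activin antagonist, Bzw2 (-2.76), Cebpd (-2.73), Sept11 (-2.69), Btbd11 (-2.61), the caveolin gene Cav1 (-2.59), the zinc transporter Slc30a4 (-2.56) and Arhgap6 (-2.55).

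In MHC class II presentation and costimulation, 5 of 16 members were called lower (31.25%, against 18.7% over all genes) and 0 higher by limma (1 higher with TMM scaling). Cd40, the receptor through which T cells activate macrophages, had 2325, 2546, 2074 and 1834 CPM at M1-8 h and 737, 953, 704 and 760.1 CPM at M1-12 h, and its log2 fold change was -1.48 ± 0.09 (SE, limma, Benjamini-Hochberg adjusted p = 1.6e-06). The costimulatory ligands Icosl (-1.01) and Pdcd1lg2 (-0.86) and the peptide exchange factor subunits H2-DMb1 (-0.79) and H2-DMa (-0.64) made up the rest. Of 15 MHC class I and peptide loading genes, 3 were called higher (20.0%, against 13.5% over all genes), namely H2-Q6 (1.58), H2-T22 (1.16) and H2-Q4 (0.57), which have near-identical relatives that may share their reads, and 0 lower (limma). With TMM scaling 5 were called higher, and without a minimum fold change 8 higher and 2 lower. H2-Q6 stood at 8.27, 25.1, 6.60 and 7.97 CPM at M1-12 h, with wt replicate 2 far above the others.

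Interferon-stimulated antiviral genes, which were far above M0 at both times, were mostly not called. Of 34 tested members, 8 were called higher (23.5%, against 13.5% over all genes) and 3 lower (8.82%, against 18.7%) at M1-12 h, and the median log2 fold change was 0.19. The other 23 were not called. The summed level was 1107 to 1284 CPM at M0, 35237 to 41970.0 CPM at M1-8 h and 43390.0 to 46147 CPM at M1-12 h. In wt libraries alone 11 members were called higher, and in Treml4-/- libraries alone 4, and that difference was not tested as a list. Bst2, which encodes tetherin, had 367, 390.0, 358 and 374 CPM at M1-8 h and 759, 816, 688 and 742 CPM at M1-12 h. The groups did not overlap and the log2 fold change was 1.01 ± 0.06 (SE, limma, Benjamini-Hochberg adjusted p = 1.1e-06). Rsad2, which encodes the antiviral enzyme viperin, had 5324, 4841, 6627 and 7448 CPM at M1-8 h and 11964, 10949, 11354 and 11054 CPM at M1-12 h and rose by 0.92, and Irf7, the factor that amplifies interferon production, by 0.92. Ifih1, the RNA sensor MDA5, and the GTPase gene Ifi47 were called lower (-1.003 and -0.92), as was Oasl1 (-0.50), whose call was lost with TMM scaling (-0.38) or without wt replicate 1 at M1-8 h (-0.46).

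Among 14 guanylate-binding proteins and immunity-related GTPases, Gbp8 (1.15) and Gbp4 (0.80) were called higher (14.3%, near the 13.5% over all genes) and Gbp2 lower. With median of ratios, TMM or quantile scaling 5 were called higher, and in Treml4-/- libraries alone 1 was higher and 3 lower. Gbp2 had 8454, 8617, 8068 and 6978 CPM at M1-8 h and 4658, 4965, 4760.4 and 4646 CPM at M1-12 h. Its log2 fold change was -0.75 ± 0.08 (SE, limma, Benjamini-Hochberg adjusted p = 3.6e-05), and members of this family are similar enough in sequence that reads may be shared.

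The promoter of Bst2 is shown because the gene had the largest rise of the list, with the interferon-stimulated response element, a pair of GAAA with 2 bases of any kind between, searched on either strand, in capitals. It covers 250 bases before to 20 after the RefSeq start (chr8:71537453-71537722, GRCm38.p6, minus strand), and the matches, which overlap each other, begin at positions -130 and -124.
Bst2 promoter: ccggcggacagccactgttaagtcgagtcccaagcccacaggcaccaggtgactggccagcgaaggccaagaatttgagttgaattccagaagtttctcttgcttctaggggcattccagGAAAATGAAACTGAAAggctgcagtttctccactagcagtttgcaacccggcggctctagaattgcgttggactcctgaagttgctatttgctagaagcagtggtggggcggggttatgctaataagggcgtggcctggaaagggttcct

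This element was present in 12 of 25 windows of the list (48.00%) and in 3.44% of all windows, and in 3.49% of those of all genes called higher.

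Genes of cell division, already low at M1-8 h, fell further. Of 34 mitosis genes, 2 were called higher and 20 lower at M1-12 h, and the median log2 fold change was -0.63, and of 35 genes of DNA replication and S phase, 5 were called higher and 19 lower at M1-12 h, and the median log2 fold change was -0.51. The mitosis list summed to 2071 to 3937 CPM at M0, 211 to 283 CPM at M1-8 h and 189 to 202 CPM at M1-12 h. The replication and S phase list summed to 389.4 to 532 CPM at M1-8 h and 389.1 to 425 CPM at M1-12 h, which overlapped. Ccnb2, a cyclin of mitotic entry, had 13.5, 4.90, 13.2 and 10.3 CPM at M1-8 h and 0.921, 0.635, 0.979 and 0.972 CPM at M1-12 h, with no overlap and a log2 fold change of -2.53 ± 0.24 (SE, limma, Benjamini-Hochberg adjusted p = 1.7e-05). Top2a, the topoisomerase that untangles chromosomes, fell by 2.28 on the log2 scale, Ube2c by 2.29, Mki67 by 1.69, the helicase genes Mcm10 by 2.14 and Mcm3 by 1.71, and thymidylate synthase Tyms by 1.70. Not every cell cycle gene fell. Ccnf, which encodes cyclin F, had 2.85, 3.68, 2.17 and 2.45 CPM at M1-8 h and 22.6, 21.95, 16.4 and 21.9 CPM at M1-12 h, with no overlap and a log2 fold change of 2.53 ± 0.11 (SE, limma, Benjamini-Hochberg adjusted p = 3.2e-07), and Kif23 (0.84) was the other mitosis gene called higher. E2f1 (1.41), Cdt1 (0.80), Chaf1b (0.72) and Ccne1 (0.70) were among the S phase genes called higher. In wt libraries alone 13 mitosis genes and 13 replication and S phase genes were called lower, and in Treml4-/- libraries alone 20 and 22.

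The promoter of Ccnb2 is shown because the gene had the largest fall of the list, with the cell cycle homology region TTTGAA, searched on either strand, in capitals. It covers 250 bases before to 20 after the RefSeq start (chr9:70421535-70421804, GRCm38.p6, minus strand), and its 2 matches begin at positions -167 and 5.
Ccnb2 promoter: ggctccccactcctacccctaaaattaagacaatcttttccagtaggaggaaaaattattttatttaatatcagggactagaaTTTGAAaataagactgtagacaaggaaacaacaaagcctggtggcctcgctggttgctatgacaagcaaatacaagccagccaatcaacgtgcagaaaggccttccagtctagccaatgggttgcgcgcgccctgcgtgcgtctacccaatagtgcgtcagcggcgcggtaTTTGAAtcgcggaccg

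The motif was found in 22 of 28 mitosis gene windows (78.6%), 14.02% of windows of the genes called lower and 12.2% of all.

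Genes that build ribosomes gave the highest share of lower calls of any list. Of 25 ribosome biogenesis genes, 0 were called higher and 22 lower at M1-12 h, and the median log2 fold change was -0.93 (19 to 23 lower over the settings tried that keep the minimum fold change, and 25 lower without it). Utp20, a factor of small subunit assembly, had 5.77, 7.04, 7.57 and 6.37 CPM at M1-8 h and 1.34, 1.83, 1.94 and 1.84 CPM at M1-12 h, with no overlap and a log2 fold change of -1.49 ± 0.10 (SE, limma, Benjamini-Hochberg adjusted p = 2.2e-06). Nhp2 (-1.49), Noc4l (-1.47), Mybbp1a (-1.40), the methyltransferase Fbl (-1.29), nucleophosmin Npm1 (-1.25) and nucleolin Ncl (-0.75) followed. Of 79 cytosolic ribosomal protein genes, 0 were called higher and 53 lower at M1-12 h, and the median log2 fold change was -0.54, and with TMM scaling 29 were called lower, with a median of -0.42. Their summed level fell at each step, from 46019 to 47813 CPM at M0 to 21714 to 26568 CPM at M1-8 h and 16337 to 17898 CPM at M1-12 h, and these RNAs have many processed pseudogenes that may share reads. Rpl3 had 494, 406, 479 and 396 CPM at M1-8 h and 221, 208, 225 and 224 CPM at M1-12 h, with no overlap and a log2 fold change of -1.01 ± 0.08 (SE, limma, Benjamini-Hochberg adjusted p = 8.0e-06), and the elongation factor Eef1a1 fell by 0.77. Of 70 nuclear-encoded subunits of the respiratory chain, 12 were called lower (17.1%, near the 18.7% over all genes), 6 with TMM scaling, with a median of -0.29 and Uqcrfs1 (-0.85) at the bottom. The log2 fold change was negative in 65 of the 70 and positive in 5. Without a minimum fold change 48 were called lower and 2 higher. Among 12 mitochondrially encoded transcripts mt-Nd6 (-1.81), mt-Nd1 (-1.22) and mt-Nd2 (-0.90) were called lower, and 6 members without wt replicate 2 at M1-8 h. The median of the list was -0.37, with -0.11 in wt and -0.55 in Treml4-/- cells and -0.16 without Treml4-/- replicate 2 at M1-8 h. The share of reads from the mitochondrial genome was 1.11% in Treml4-/- replicate 2 at M1-8 h and 0.517 to 0.811% in the other 7 LPS libraries.

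The counts in the other lists stand against 13.5% called higher and 18.7% called lower over all genes. Of 23 genes of Toll-like receptors and LPS sensing, 5 were called higher and 3 lower. Tlr13, the receptor of bacterial ribosomal RNA, had 75.2, 52.4, 124 and 109 CPM at M1-8 h and 299, 225, 337 and 296 CPM at M1-12 h, with no overlap and a log2 fold change of 1.73 ± 0.16 (SE, limma, Benjamini-Hochberg adjusted p = 1.5e-05), against a mean of 723 CPM at M0. Cd180 (0.80), Traf6 (0.62), Ticam2 (0.60) and Tirap (0.54) were called higher, and Myd88 (-0.85), Tlr2 (-0.63) and Ly86 (-0.57; -0.46 and not called with TMM scaling) lower. Scavenger, C-type lectin and Fc receptors gave 6 higher and 8 lower of 29, with Clec4n (1.44), which encodes Dectin-2, at the top. Macrophage identity genes gave 3 higher and 9 lower of 24, with the phagocytosis checkpoint receptor Sirpa (1.32) and Tgfbr2 (0.83) called higher and Gas6 (-1.42), a ligand for the uptake of dead cells, and the transcription factor Irf8 (-1.08) lower. With TMM scaling 5 of them were called lower. The median of this list changed sign with median of ratios, TMM and quantile scaling, and that of the scavenger receptors with median of ratios and TMM scaling. Among 19 prostaglandin and leukotriene genes 4 were called higher and 7 lower, with Hpgd (-1.39), Alox5 (-1.34) and Ptgs1 (-1.06) lowest, and Ptgs2, the inducible cyclooxygenase, was not called (-0.34 ± 0.14 (SE, limma, Benjamini-Hochberg adjusted p = 0.056)). Of 31 inflammasome and cell death genes 4 were called higher and 10 lower, including the inflammasome adaptor Pycard (-1.57), Nlrp3 (-0.81) and the near-identical copies Bcl2a1a, Bcl2a1b and Bcl2a1d, whose reads cannot be assigned with certainty. Complement genes gave 2 higher, Cfp (0.64) and C3 (0.54, not called at 0.43 without wt replicate 1 at M1-8 h), and 3 lower of 13, the latter including C5ar1 and C1s1 (-0.69). Of 37 proteasome subunits 1 was called higher, Psmb6 (0.50; 0.44 and 0.46 and not called without Treml4-/- replicate 2 at M1-8 h and M1-12 h), and 0 lower by limma. With TMM scaling 4 were called higher, and without a minimum fold change 12 higher and 5 lower.

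**Figure D2:**
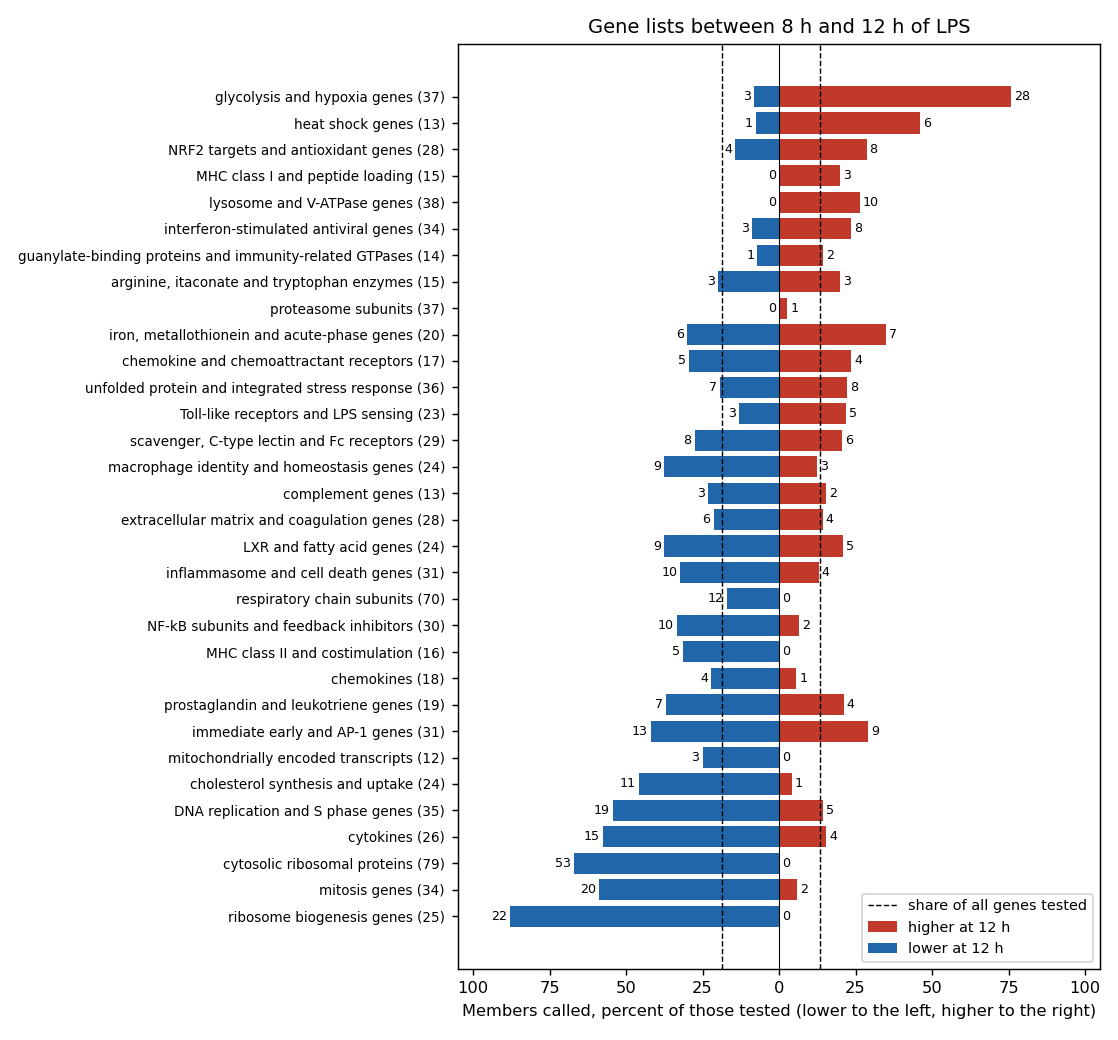
Share of the tested members of each of the 32 gene lists that were called higher (red, to the right) or lower (blue, to the left) at 12 h than at 8 h of LPS, in percent, with the number of members called beside each bar and the number tested in parentheses; dashed lines mark the shares over all genes. Lists are ordered by their median log2 fold change, from glycolysis and hypoxia (0.78) at the top to ribosome biogenesis (-0.93) at the bottom.

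The unstimulated libraries were set beside the LPS libraries as a description, without a test, since the M1-8 h libraries enter both steps. Of the 1627 genes called higher at M1-12 h, 1062 had lain at least 1.4-fold below M0 at M1-8 h, 294 within 1.4-fold of it and 271 above it. Of those 1062 genes, 669 were still below M0 at M1-12 h, 353 had come within 1.4-fold of it and 40 had passed above it. Of the 2257 genes called lower, 700 had lain above M0 at M1-8 h, 415 within 1.4-fold and 1142 below it. Of the 700 induced genes that fell back, 364 were still above M0 at M1-12 h, 290 were within 1.4-fold of it and 46 were below it. Over all genes tested, 2073 were above, 2785 within and 7228 below at M1-8 h. These classes rest on CPM and were not computed with another scaling. The median log2 difference of M1-8 h from M0 over all genes was -0.72, beyond the class limit of 0.485. Median of ratios factors were 1.37 to 1.56 in M0 libraries and 0.76 to 0.97 in LPS libraries. Placements against M0, here and in the lists, therefore depend on the scaling.

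Genes furthest above both M0 and M1-8 h at M1-12 h were Arg1, Cd300lf, Wnk2, Egln3, P4ha2, Hspa1b, Plcxd2 and Gm15056. Wnk2 had a mean of 0.0575 CPM at M0, 1.79 CPM at M1-8 h and 28.1 CPM at M1-12 h. Genes that had been furthest above M0 at M1-8 h and then fell included Il12b, Il27, Cd40, Gbp2, Ifi205 and Cd69, an early activation marker of leukocytes. Cd69 went from 0.528 CPM at M0 to 374, 512, 411 and 580.2 CPM at M1-8 h and 185, 286, 182 and 167 CPM at M1-12 h, and thus stayed far above M0 in every library. Genes that rose at M1-12 h from the lowest point below M0 included Cxcr4, Plekhg3, Rnf144b and Cd97. Cxcr4, the receptor that keeps leukocytes in bone marrow, went from 289.9 CPM at M0 to 1.37 CPM at M1-8 h and 3.59 CPM at M1-12 h, a rise with a log2 fold change of 0.94 ± 0.11 (SE, limma, Benjamini-Hochberg adjusted p = 6.3e-05) that recovered a small part of the loss. Genes called lower that ended furthest below M0 were Top2a, Ccna2, Racgap1, Plk1 and Ccnb2, all of the cell cycle.

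**Figure D3:**
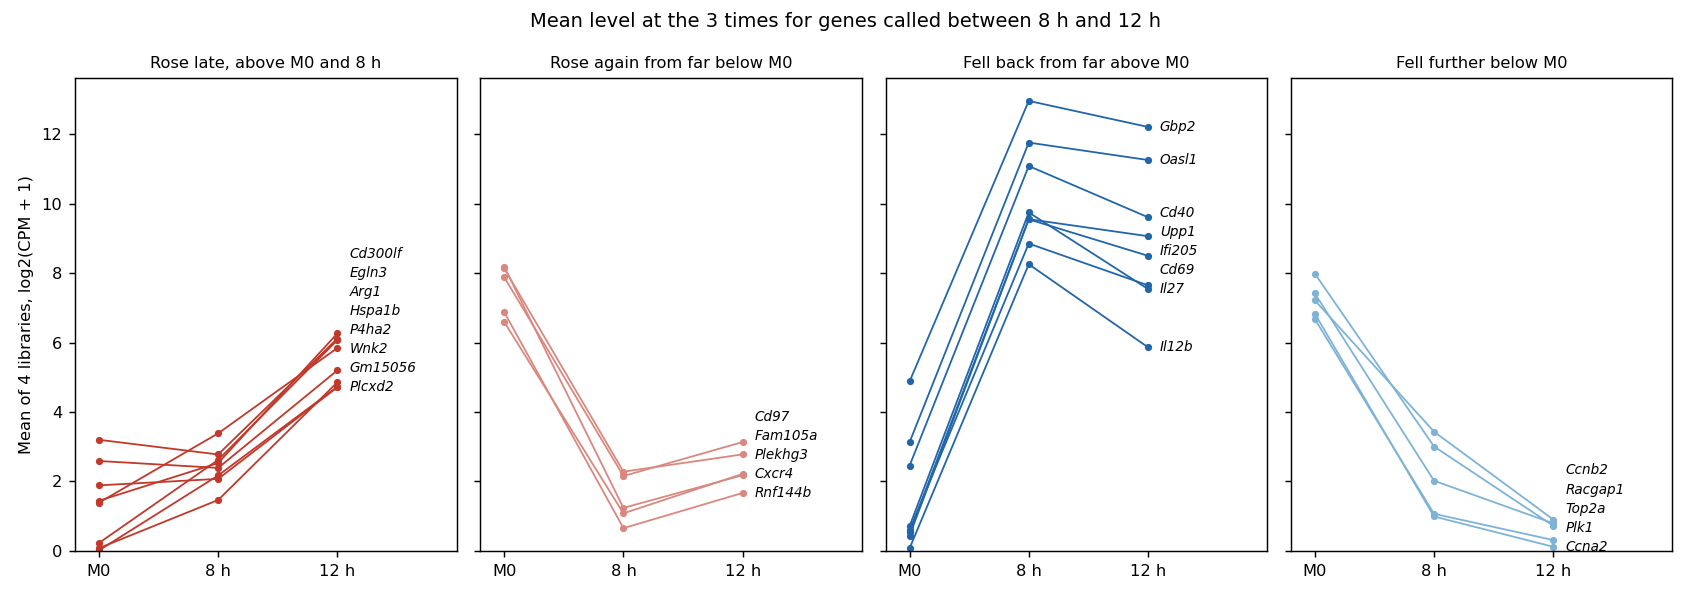
Mean log2(CPM + 1) of the 4 libraries at each of M0, 8 h and 12 h of LPS (horizontal axis) for genes called between 8 h and 12 h, 1 line per gene. From left to right are the 8 genes furthest above both earlier times at 12 h, the 5 that rose from furthest below M0, the 8 that fell from furthest above M0 and the 5 that ended furthest below M0, with names spaced apart in the order of the levels at 12 h; Il12b falls from 8.26 to 5.87 and Egln3 rises from 2.78 to 6.11.

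**Figure D4:**
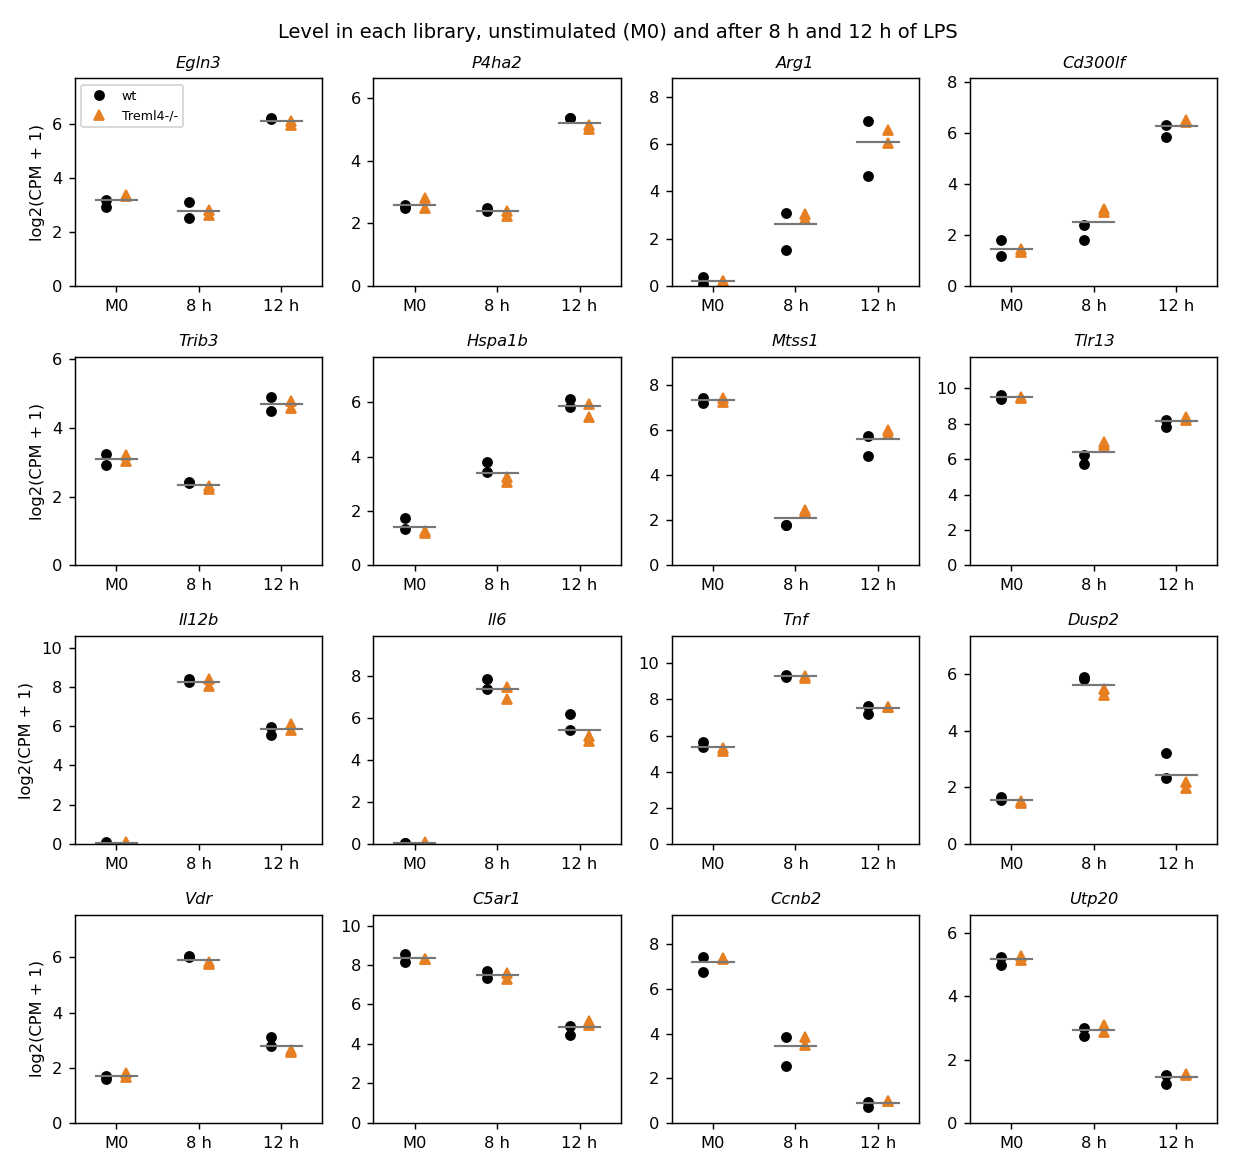
Level of 16 genes, log2(CPM + 1) (vertical axes, which differ between panels), in each library at M0, 8 h and 12 h of LPS; circles are wt and triangles Treml4-/- libraries, and grey lines the means of 4. In each panel the 4 libraries at 12 h lie wholly above or wholly below the 4 at 8 h, and several of these genes were chosen among genes without overlap.

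The change between the times was compared between the genotypes with an interaction term. No gene was called by limma (0 of 12086, 0%), while 469 had an unadjusted p under 0.05 (3.88%) and voom on the recovered reads called 0 with 436 such genes; leaving out 1 library at a time also gave 0 calls, with 129 such genes without Treml4-/- replicate 2 at M1-12 h and 1388 without Treml4-/- replicate 1 at M1-8 h at the extremes. The lowest Benjamini-Hochberg adjusted p of limma was 0.900, shared by the 3 genes with the lowest p, Treml4, Pydc3 and Myo18b. Of the 3884 genes called over both genotypes, 3883 changed in the same direction in each, and the exception was Treml4, which had 0 reads in all Treml4-/- libraries. These genes were chosen by their change over both genotypes, which favours the same direction in each, so the count is not a test of agreement. Treml4 (chr17:48264295-48275360) had 3.997 and 3.95 CPM in the wt replicates at M1-8 h (198 and 213 reads) and 9.82 and 13.2 CPM at M1-12 h (512 and 663 reads), against 8.35 and 6.57 CPM at M0. In wt cells its log2 fold change was 1.31 ± 0.13 (SE, limma, Benjamini-Hochberg adjusted p = 1.7e-04), and both libraries at M1-12 h were above both at M1-8 h. The Treml4-/- libraries, with 0 reads and so no spread, also entered the variance behind this SE and p. Neither value therefore measures the spread of the wt libraries alone, and the same holds for the p of Treml4 in the genotype difference. Arg1 changed by 3.51 in wt and 3.39 in Treml4-/- cells, Il6 by -1.80 and -2.16, and Egln3 by 3.38 and 3.29. Pydc3, an interferon-induced gene of the pyrin family, changed by -1.10 in wt and -0.09 in Treml4-/- cells, a difference of -1.01 ± 0.19 (SE) on the log2 scale that did not pass the adjusted threshold.

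**Figure D5:**
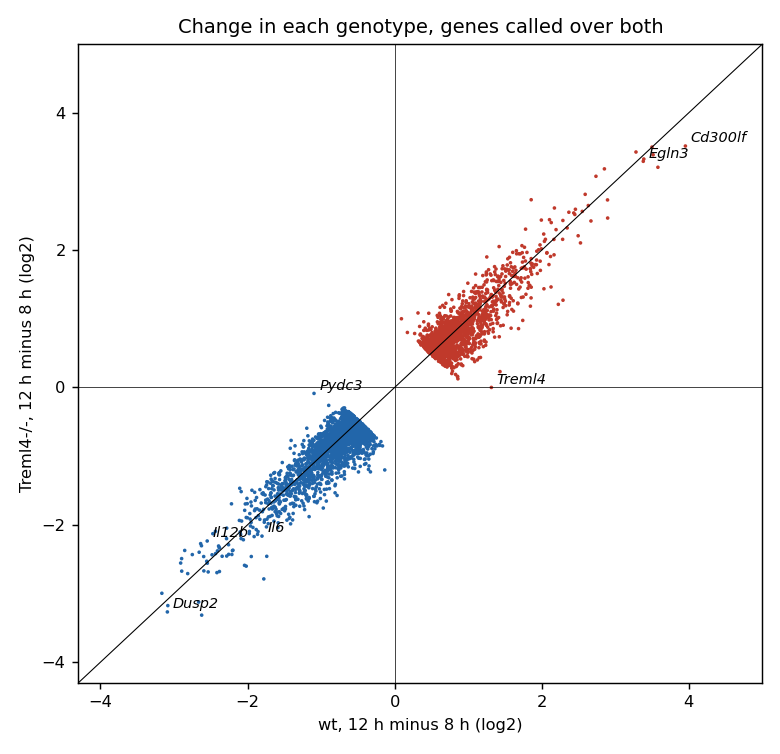
Log2 fold change between 8 h and 12 h of LPS in wt (horizontal axis) and Treml4-/- libraries (vertical axis) for the 3884 genes called over both genotypes, red for higher and blue for lower at 12 h; the diagonal marks equal change. Points follow the diagonal in both directions, and Treml4 lies at 1.31 in wt and at 0 in Treml4-/- libraries, which hold no read of it. The genes were chosen by their change over both genotypes, which favours the same direction in each.

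Genes called in the opposite directions differed little in length and more in base composition. The median GC content of exons was 50.9% for genes called higher, 48.3% for genes called lower and 49.6% for all genes tested, and median transcript lengths were 3552, 3434 and 3236 bases. From the lowest to the highest of these bins the share called higher went from 8.81% to 17.2% and the share called lower from 21.7% to 14.2%, and the part of GC content in these counts was not tested. Among the remaining motifs, the antioxidant response element TGACNNNGC was present in 7 of 23 windows of NRF2 targets and antioxidant genes (30.4%) and 15.2% of all, the heat shock element, GAA, TTC and GAA with 2 bases of any kind between each, in 3 of 10 heat shock gene windows and 0.350% of all, and the C/EBP-ATF composite site TGATGNAAT in 0 of 32 stress response windows and 0.437% of all. A match is a description of the letters and not evidence of binding, and windows without one say nothing of the factor.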

How the data were processed

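Poly(A)-selected, stranded paired-end RNA-seq libraries were aligned by the authors with STAR (mm10, per the submitters' processing notes) and counted with Subread in the CCBR workflow. The annotation and the use of strand in counting are not given in the sources used here, so that overlapping and antisense genes may share reads. The deposited values are log2 CPM per gene, and the design had taken them to be CPM. They fit log2 values with a prior count of 0.25 reads, and removing it gave whole reads for 100% of values (within 0.01 reads), from which CPM was computed.

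All 12 libraries were mapped to their groups by their labels. The labels name 2 biological replicates per condition without saying whether they came from separate mice, so p-values measure the spread between these libraries. Genes that reached 1 CPM in 2 or more of the 12 libraries were tested with limma 3.58.1 (R 4.3.3, variance trend) on log2(CPM + 1) of the 8 LPS libraries with terms for genotype and time (5 residual degrees of freedom), and with 1 mean per condition for the genotype difference and for Treml4 within wt. p-values were adjusted by Benjamini-Hochberg over all 12086 genes. The fold change of 1.4 and the 5% false discovery rate follow the thresholds of the study. The fits were tested on simulated data. Descriptions and figures were made with Python 3.11.15, pandas 2.3.3, numpy 2.4.6 and matplotlib 3.10.9.

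Genes named are the 15 largest changes in each direction without overlap, up to 4 called members and the most abundant member of each of 32 lists, Treml4, the 5 largest gains and losses in CPM, the 3 lowest p of the genotype difference, the extremes across M0, M1-8 h and M1-12 h, and the 10 lowest p in each direction; other genes named within a list were chosen after their values were seen. The lack of overlap in the 15 largest changes of each direction was thus set by this choice. The members and lists were chosen with earlier results of these data known. Gene positions are those of GENCODE M21 (GRCm38), which gave one for 11547 of the 12086 genes, and promoter sequences those of RefSeq (GRCm38.p6), which matched 9150. The values of some genes that fall under this naming rule are not reported here.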

Additional observations from a re-analysis of the deposited data

Results flagged for a closer look

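The check covered 258 of the genes named here, without Treml4, Lyz2 and Mertk. For each gene and time, the 4 libraries were checked for 1 value that lay apart from the other 3. The measure was its gap to the nearest value over the whole range (Dixon's test at 95%). This was so in 38 of 516 groups of 4, and chance sets about 1 in 20 groups apart. Values are in CPM, with the range of the other 3 libraries in parentheses.

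16 of the 38 values belonged to wt replicate 2 at M1-12 h. Wild-type replicate 2 at M1-12 h stood above the other libraries of its time in Btg2 at 32.4 (21.4 to 21.5), Ccne1 at 19.2 (11.6 to 12.2), Cd69 at 286 (167 to 185), Clic4 at 2551 (2197 to 2228), Gfi1 at 0.973 (0.434 to 0.499) and H2-Q6 at 25.1 (6.60 to 8.27). It also stood above them in Il15 at 175 (129 to 134), Ly86 at 12.5 (10.1), Nfkb1 at 245 (149 to 159.7), Noc4l at 17.3 (13.4 to 13.6), Taf4b at 5.60 (2.65 to 3.07) and Tnfaip3 at 492 (385 to 397). The same library stood below the other libraries of its time in Ccnb2 at 0.635 (0.921 to 0.979), Kif21b at 54.4 (63.99 to 65.7), Top2a at 0.457 (0.710 to 0.7499) and Zc3h12d at 46.5 (71.5 to 75.96). Without this library the log2 fold change of H2-Q6 was 1.26 instead of 1.58, and it was still called.

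Wild-type replicate 1 at M1-12 h stood above the other libraries of its time in Arg2 at 45.4 (36.4 to 37.00), Hpgd at 4.32 (3.81 to 3.89) and Zfp36l1 at 23.9 (16.8 to 17.5). The same library stood below the other libraries of its time in H2-DMb1 at 53.96 (66.6 to 68.5), Srebf2 at 44.6 (50.1 to 51.1) and Tnf at 146 (188 to 196).

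Treml4-/- replicate 1 at M1-12 h stood above the other libraries of its time in Idi1 at 1.15 (0.590 to 0.655), Mpo at 1.17 (0.516 to 0.608) and Traf6 at 74.9 (65.3 to 66.4). The same library stood below the other libraries of its time in Ccnf at 16.4 (21.9 to 22.6).

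Wild-type replicate 2 at M1-8 h stood above the other libraries of its time in C3 at 5044 (2963 to 3156), Cd97 at 4.55 (3.13 to 3.19), Cxcr4 at 1.80 (1.17 to 1.27) and Ticam2 at 12.6 (7.17 to 7.79). The same library stood below the other libraries of its time in Mrc1 at 26.4 (50.5 to 54.97) and Spr at 4.14 (5.45 to 5.71).

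Wild-type replicate 1 at M1-8 h stood above the other libraries of its time in Actb at 12485 (10094 to 10471) and Nos2 at 19425 (16756 to 17094). The same library stood below the other libraries of its time in Gclc at 24.00 (31.4 to 32.1).

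Treml4-/- replicate 2 at M1-8 h stood below the other libraries of its time in Csf1r at 1037 (1193 to 1219), Noc4l at 35.7 (43.3 to 44.4) and Pycard at 59.4 (71.2 to 73.3).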

How the results depend on the processing

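The directions of all called genes among the 258 checked, and the 0 calls for the genotype difference, were kept under every alternative run. Without a minimum fold change 3201 genes were called higher and 4239 lower. With voom on the recovered reads and TMM scaling, an alternative chosen after seeing the data, 2575 were called higher; the higher and lower counts under the other alternatives lay within 1.5 times 1627 and 2257. The 1627 genes were all called higher with TMM and median of ratios scaling too, and of the 2257 called lower 1782 and 2037 were shared. Leaving out 1 library at a time gave 1599 to 1719 higher and 2178 to 2352 lower, 0 for the genotype difference in each case, and 1.12 to 1.51 for Treml4 in wt. Of the 258 genes checked, which leave out Treml4, Lyz2 and Mertk, 9 lost their call with TMM scaling and 8 with quantile normalization. With the wt libraries alone 13 lost it, and with the Treml4-/- libraries alone 7.

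The labels do not say whether same-numbered libraries came from the same culture, and no pairing was used in the main fit. The deviations of same-numbered libraries from their condition means correlated at 0.41 in wt and -0.27 in Treml4-/- cells, which does not settle it. A block for the replicate number left 1626 genes called higher, 2260 lower and 0 for the genotype difference (541 at an unadjusted p under 0.05), and Treml4 in wt stayed at 1.31. With the Treml4-/- numbers crossed 1633 were called higher and 2267 lower. The planned edgeR and DESeq2 tests were not run, and voom on the recovered reads stood in for them. At 48008751 to 58500792 reads, genes under about 1 CPM were not tested.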

Other observations

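Kdr, the gene of vascular endothelial growth factor receptor 2, a receptor best known from endothelial cells, rose between the times. It had 87.1, 107, 87.8 and 92.5 CPM at M1-8 h and 235, 171, 220.0 and 259.9 CPM at M1-12 h, with no overlap and a log2 fold change of 1.22 ± 0.12 (SE, limma, Benjamini-Hochberg adjusted p = 2.7e-05), against a mean of 7.32 CPM at M0. Of the other 4 markers on the endothelial list, Tek and Emcn stayed at 3 reads or fewer in every library. Pecam1 and Cdh5 had log2 fold changes of 0.44 and 0.43 and were not called in the main fit. Both were called with TMM scaling (0.56 and 0.54), and also with voom on the recovered reads without TMM scaling (0.49 and 0.65). Neutrophil granule genes were called lower, with log2 fold changes of -1.85 for Mpo, the myeloperoxidase, -1.47 for the elastase Elane, -1.20 for Ngp and -0.89 for S100a9, while S100a8 was at 0.01. Mpo had a mean of 20.1 CPM at M0 and 5.35 ± 1.97 CPM at M1-8 h and 0.712 ± 0.306 CPM at M1-12 h (SD, n = 4 each).

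Some of the changes with the lowest adjusted p concerned genes on none of the lists. Kif21b, a kinesin motor, rose by 2.48 on the log2 scale, Gde1 by 2.08, the adaptor of G protein-coupled receptors Arrb1 by 1.85, the amino acid transporter gene Slc43a2 by 1.76, Eif4ebp1, a repressor of cap-dependent translation, by 1.63 and the transcription factor Foxo3 by 1.54. Arrb1 had 37.7, 37.1, 41.4 and 41.9 CPM at M1-8 h and 137, 151, 146 and 146 CPM at M1-12 h, and both were below the mean of 486 CPM at M0. In the other direction the connexin gene Gja4 changed by -2.53, the drug efflux pump Abcb1b by -2.37, the acetyl-CoA transporter Slc33a1 by -2.34, Hivep2 by -1.98, Bcl9 by -1.70 and the lymphoid transcription factor Ikzf1 by -1.61. Ikzf1 had 371, 378, 386 and 359 CPM at M1-8 h and 119, 128, 119 and 121 CPM at M1-12 h, with no overlap, and a mean of 73.5 CPM at M0. Abundant transcripts were among those called lower, with a mean of 10866 CPM at M1-8 h and 7349 CPM at M1-12 h for beta-actin, Actb (log2 fold change -0.56, and -0.44 and not called with TMM scaling), and 4125 and 2299 CPM for the chloride channel gene Clic4 (-0.84).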
